A study of Mus musculus with 98 samples.

Results

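Il33, Il1rl1, Il1r1, Il6, Lif, Il11 and Il6st, a named list of 7 genes made of interleukin 33, its receptor, the interleukin 1 receptor and part of the interleukin 6 family, were followed through the stroma of the mouse thymus. Membership is set by gene name alone, the list was drawn up with earlier results of these data known, and all 7 genes were found in each of 3 tables: among 22231 genes of single cells over age, 20760 genes of single cells of newborn mice, and 39179 genes of sorted populations.

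The age series held 8 libraries of nonepithelial thymic stroma (NETS, sorted as Ter119-CD45-EpCAM- cells) of wild-type (WT) mice, 1 from embryos of E12.5 (embryonic day), 1 from E13.5, and 2 for each of E16.5, birth (P0) and 4 weeks. Its 36208 cells carry 19 deposited subtype names. The newborn series held 6 libraries of Ter119-CD45- cells fixed before capture (21451 cells), 3 labelled Tbx1+/-Crkl+/- and 3 from WT littermates. The mutants carry 1 LacZ allele of Tbx1 and 1 null allele of Crkl in every cell. The bulk series held 84 libraries of WT mice, 6 for each population and age. At P0 and 4 weeks these were CD31+ endothelium, Ly51+gp38- cells (pericytes and smooth muscle), gp38+CD26+ cells (fibroblasts of the capsule), gp38+CD26- cells (fibroblasts enriched in the medulla), cortical (cTEC) and medullary (mTEC) epithelium, and at 4 weeks also the mTEChi and mTEClo fractions. E12.5 and E13.5 libraries pooled embryos of litters, while E16.5, P0 and 4 weeks were described as 2 thymi each and the newborn series as 3 mice per genotype. For bulk libraries the labels do not say whether those of a group came from separate mice, so their p-values measure the spread between libraries. The methods describe a bead depletion of CD45+ cells for adult digests only. Between P0 and 4 weeks, age and this handling therefore cannot be told apart. Subtype names are CapFb and MedFb for capsular and medullary fibroblasts, Pr for proliferating cells, Mes for mesothelium, Pc for pericytes, VSM for vascular smooth muscle, EnA, EnC and EnVL for arterial, capillary and venous or lymphatic endothelium, and NC for neural crest.

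Levels are CPM, counts scaled to a total of 1000000. The counts are UMIs (tags that count each captured transcript once) of all cells that a subtype has in 1 library, or reads of a bulk library. Age libraries held 28583048 to 93040640 UMIs (median 10005 to 14031 UMIs per cell), newborn libraries 4978011 to 31418527 (median 2391 to 4686 per cell) and the 83 bulk libraries used 5785352 to 15852166 counts. Replicate 2 of gp38+CD26+ cells at 4 weeks held 25702 counts and was left out. Of the distinct cell barcodes, 0.430% of 36053 in the age series and 44 of 21407 in the newborn series occurred in more than 1 library. The methods describe keeping cells called singlets by DoubletFinder, and no further doublets were removed here. Bulk epithelium held summed CPM of its 4 markers between 1751 and 8075, CD31+ cells 1933 to 5274 of 3 endothelial markers, Ly51+gp38- cells 31367 to 114218 of 5 mural markers and gp38+ cells 22819 to 58405 of 4 fibroblast markers. In bulk samples, fewer cells of a type and less RNA per cell cannot be told apart.

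IL-33 is a cytokine of the interleukin 1 family that is stored in the nucleus of barrier and stromal cells and acts as an alarm signal when released. It binds ST2, encoded by Il1rl1, which is known from regulatory T cells, type 2 innate lymphoid cells and mast cells, and which shares the accessory chain Il1rap with the interleukin 1 receptor Il1r1. IL-6, LIF and IL-11 each bind a receptor chain of their own and signal through the shared chain gp130, encoded by Il6st, to JAK kinases and STAT3, with Socs3 as feedback inhibitor. In the thymus LIF and IL-6 are known as stromal products.

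In the annotation of build GRCm38 (GENCODE M21) Il33 lies at chr19:29925114-29960718 on the plus strand, Il1rl1 at chr1:40429570-40465415 (plus), Il1r1 at chr1:40225080-40317257 (plus), Il6 at chr5:30013114-30019981 (plus), Lif at chr11:4257557-4272514 (plus), Il11 at chr7:4772373-4782859 (minus) and Il6st at chr13:112464070-112510086 (plus). No exon of the 7 overlaps an exon of another gene. RefSeq promoters of GRCm38.p6 were matched for 7 of the 7 genes (11 start sites). The 250 bases before the start are shown for the ligands with the largest changes, Il33 with its 2 start sites at chr19:29924863-29925112 and chr19:29945540-29945789, and Il6 at chr5:30012864-30013113, all on the plus strand. Capitals mark matches on either strand to the letters of a TATA box (TATAAA), an NF-kB site (GGANTTTCC) or an AP-1 site (TGACTCA).
Il33 start site 1: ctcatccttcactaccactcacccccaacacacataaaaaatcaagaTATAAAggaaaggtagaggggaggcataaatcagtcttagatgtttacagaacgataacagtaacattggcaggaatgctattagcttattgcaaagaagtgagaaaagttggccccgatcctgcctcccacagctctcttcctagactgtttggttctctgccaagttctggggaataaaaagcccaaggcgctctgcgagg
Il33 start site 2: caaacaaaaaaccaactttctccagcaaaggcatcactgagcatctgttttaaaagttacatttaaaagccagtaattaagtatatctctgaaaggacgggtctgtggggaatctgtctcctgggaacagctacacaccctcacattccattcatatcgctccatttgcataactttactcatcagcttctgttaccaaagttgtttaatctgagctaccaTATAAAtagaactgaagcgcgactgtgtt
Il6: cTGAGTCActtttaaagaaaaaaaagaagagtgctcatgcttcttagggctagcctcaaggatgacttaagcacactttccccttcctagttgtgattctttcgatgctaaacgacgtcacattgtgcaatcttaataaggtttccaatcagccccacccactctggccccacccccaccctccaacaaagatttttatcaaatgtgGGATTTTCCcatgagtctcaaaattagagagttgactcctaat
Both Il33 sequences held the TATA letters, which 12.4% of 32851 promoters hold. The Il6 sequence held the NF-kB letters (1.07% of promoters) and the AP-1 letters (4.46%), and no other member had an NF-kB match. AP-1 letters were also found before Lif and before 1 of 2 start sites of Il11. No match to the letters TTCCNGGAA for STAT3 (0.913% of promoters) or TGACGTCA for a CRE (1.55%) was found in the 11 windows. A match describes letters and is not a bound site.

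Il33 was highest in the fibroblast populations. At P0 it measured 476 to 926 CPM (median 697, n = 6) in gp38+CD26+ cells and 485 to 988 CPM (median 579.9, n = 6) in gp38+CD26- cells. In Ly51+gp38- cells it measured 29.3 to 73.8 CPM, in CD31+ cells 0 to 8.57 CPM, in cTEC 0 to 14 CPM and in mTEC 6.49 to 20.8 CPM. Both gp38+ populations lay above every library of the other 4. At P0, Ly51+gp38- cells had less Il33 than the mean of both gp38+ populations by a log2 difference of -3.89 ± 0.72 (standard error, edgeR quasi-likelihood test, Benjamini-Hochberg adjusted p = 2.1e-04). CD31+ cells had less than the mean of the other 3 nonepithelial populations by -7.12 ± 0.87 (adjusted p = 4.4e-08). At 4 weeks the same differences were -4.27 ± 0.92 (adjusted p = 5.6e-04) and -7.95 ± 1.12 (adjusted p = 2.8e-07). Between gp38+CD26+ and gp38+CD26- cells the log2 difference was 0.13 ± 0.67 at P0 and 0.32 ± 0.88 at 4 weeks (adjusted p = 1.0 in both).

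From P0 to 4 weeks Il33 rose in gp38+CD26+ cells to 1039 to 2181 CPM (median 1399, n = 5), in gp38+CD26- cells to 1237 to 1578 CPM (median 1337, n = 6) and in cTEC to 133 to 217 CPM (median 178, n = 6). In each of these populations all libraries of 4 weeks lay above all libraries of P0. The rise was 2.5-fold in gp38+CD26+ cells (log2 difference 1.32 ± 0.22, adjusted p = 0.0016), 2.27-fold in gp38+CD26- cells (1.19 ± 0.17, adjusted p = 1.6e-04) and 26.5-fold in cTEC (4.73 ± 0.54, adjusted p = 4.4e-05). Il33 in Ly51+gp38- cells (21.3 to 166.8 CPM at 4 weeks) did not pass the test (0.85 ± 0.39, adjusted p = 0.21), nor did Il33 in mTEC (0 to 36.1 CPM, -0.26 ± 0.98, adjusted p = 0.94). The call in gp38+CD26+ cells ended with replicate 2 kept in (adjusted p = 0.26) and within the libraries whose names carry the prefix DFCK (adjusted p = 0.34). In 1 fit over all populations and ages neither gp38+ population passed (adjusted p = 0.35 and 0.36).

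The 4-week cTEC libraries also held more RNA of other cells, and its part in the Il33 result was not tested. The summed level of 4 fibroblast markers in cTEC was 12.6 to 124.8 CPM at P0, with Pdgfra at 0, and 339.7 to 1791 CPM at 4 weeks. That of 7 haematopoietic markers was 25.3 to 47.4 CPM and then 353 to 1646 CPM. That of 3 mesothelial markers was 0 to 4.84 CPM, with Upk3b at 0, and then 16 to 2314 CPM, and Mes was among the single-cell subtypes with the most Il33. In gp38+CD26+ cells, where Il33 also rose, mesothelial markers went from 0 to 325 CPM at P0 to 438 to 5181 CPM at 4 weeks, and in gp38+CD26- cells they were at most 241.4 and 47.5 CPM. Il33 came to 12.1 to 40.8% (median 26.3%) of the fibroblast marker sum in cTEC at 4 weeks, against 2.13 to 4.90% in gp38+CD26+ and 3.80 to 5.08% in gp38+CD26- cells of that age. At P0 the same share in cTEC was 0 to 59% (median 13.7%). Its ends are 0 over 70.8 CPM and 7.43 over 12.6 CPM. Such ratios of values near 0 are too unsteady to be set against the shares of 4 weeks. The cTEC library with the least fibroblast RNA (339.7 CPM) held 133 CPM of Il33 and 23.5 CPM of mesothelial markers, and the one with the most (1791 CPM) held 217 CPM of Il33 and 2314 CPM of mesothelial markers. At 4 weeks cTEC exceeded mTEC by 3.69 ± 0.94 on the log2 scale (adjusted p = 0.0027).

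**Figure D1:**
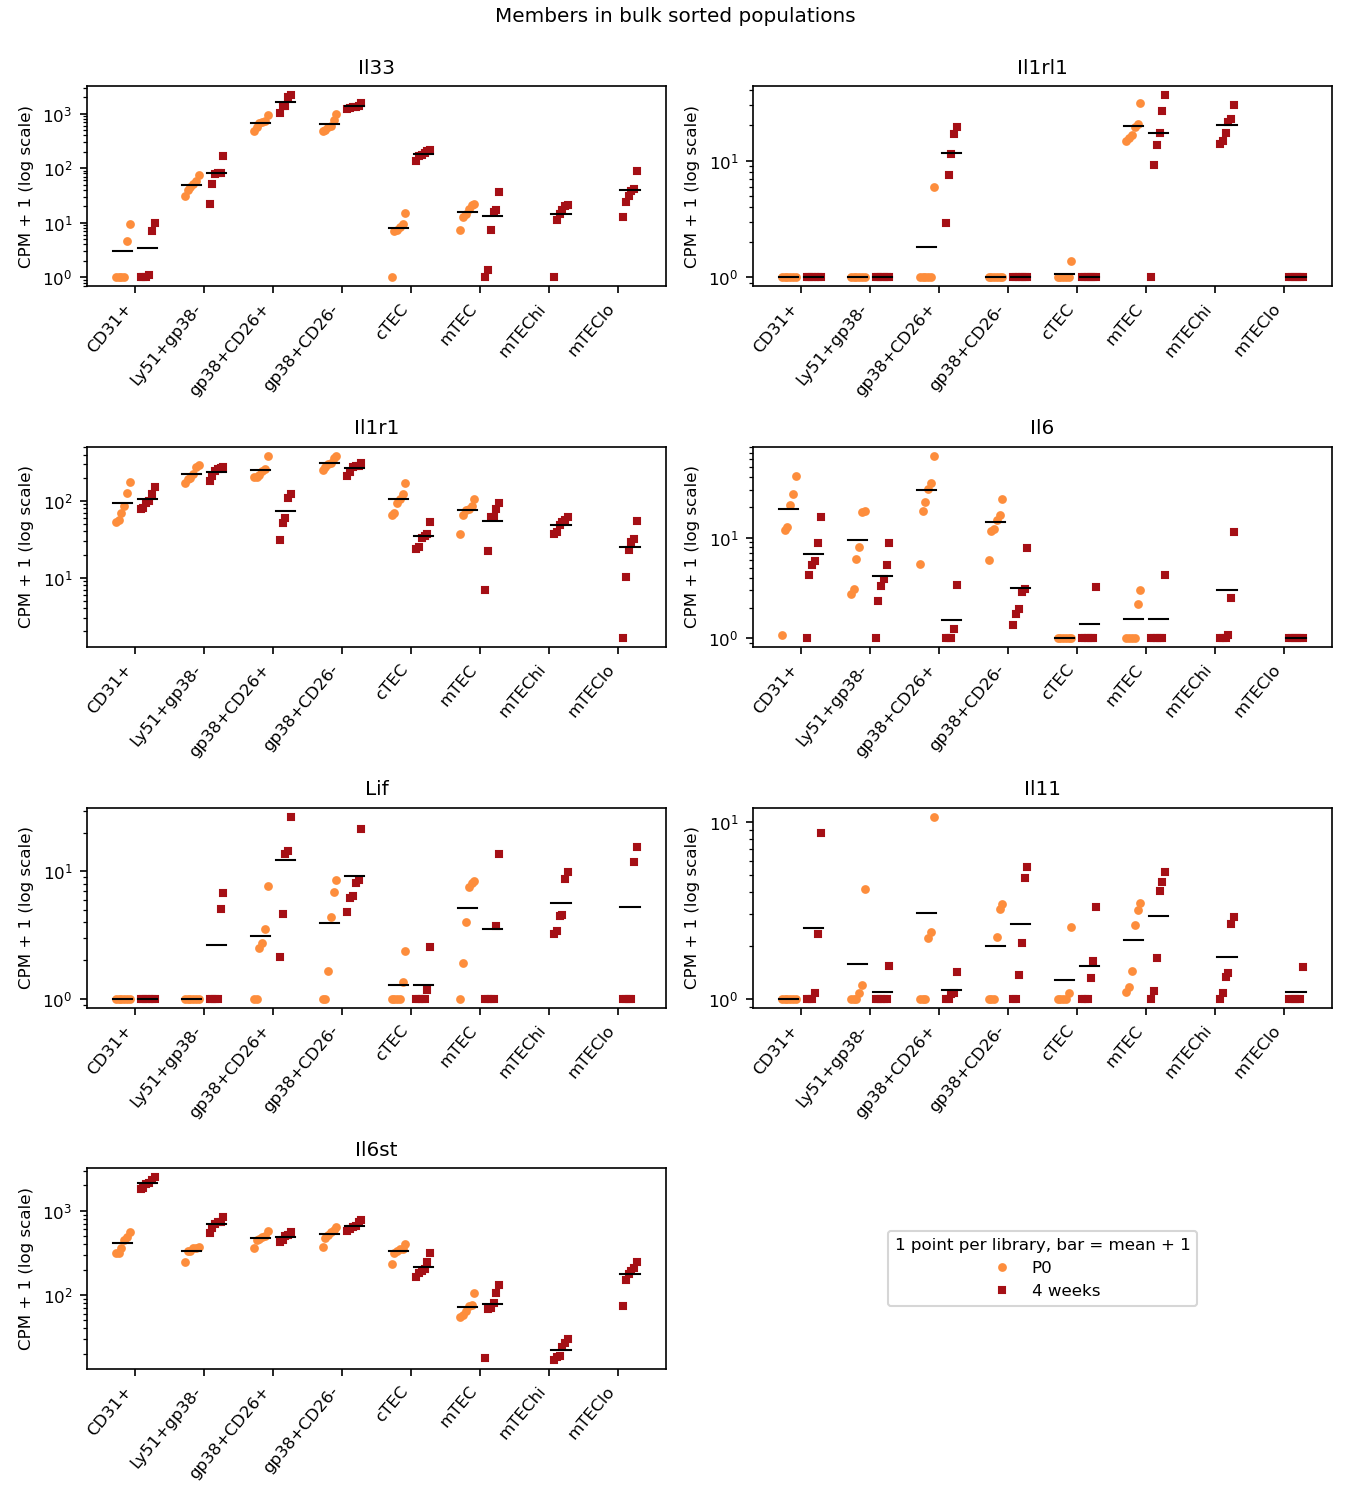
Level of the 7 genes in the sorted populations, as CPM + 1 on a log axis, with 1 point per bulk library at P0 or 4 weeks and a bar at the group mean + 1. Il33 stands highest in the 2 gp38+ populations and rises in cTEC from at most 14 to at least 133 CPM, Il6st rises in CD31+ cells, and Il1rl1 is found in mTEC, mTEChi and gp38+CD26+ cells.

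In single cells Il33 was 1.90 CPM over all cells at E12.5 and 7.0 CPM at E13.5, 57.6 and 61.1 CPM in the 2 libraries of E16.5, 111 and 74.9 CPM at P0, and 209 and 232 CPM at 4 weeks. CapFb and MedFb cells held 79.3 and 89.5% of the Il33 UMIs at P0 and 96.0 and 89.2% at 4 weeks, while being 61 and 61.1%, then 51.8 and 60.3% of the cells. At 4 weeks 13 subtypes lay at 123 CPM or above, and Pc, VSM, EnA, EnC and EnVL at 26.3 CPM or below. NC held 0 UMIs in 7 cells of each library, which bounds its level only below 64.5 and 123.9 CPM. CapFb4 led with 378 and 453 CPM, followed by MedFb1b (353 and 373), Mes (292 and 376) and MedFb1a (288 and 357). The ranges of neighbours in the order overlapped from MedFb1b to MedFb2a (271 and 294 CPM), and CapFb3 (221 and 246 CPM) and CapFb1c (189.7 and 197 CPM) followed below. The subtypes were clustered on these same counts, so no test between them was made.

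From P0 to 4 weeks Il33 rose in 8 of the 16 subtypes in which it could be tested, where 13.7% of all tests over genes and subtypes were called higher. In CapFb4 it measured 118.8 and 72.6 CPM at P0 and 453 and 378 CPM at 4 weeks (log2 difference 2.18 ± 0.15, edgeR adjusted p = 6.5e-11). MedFb1b went from 101.3 and 80.7 CPM to 373 and 353 CPM (1.98 ± 0.10, adjusted p = 9.7e-10). MedFb2a (1.95 ± 0.22), MedFb1a (1.80 ± 0.13), CapFb1b (1.46 ± 0.08), CapFb2a (1.32 ± 0.22), MedFb2b (0.99 ± 0.19) and CapFb2b (0.55 ± 0.10) rose as well, with adjusted p between 4.6e-09 and 0.0020. These 8 calls were kept in every alternative run. CapFb1a (0.15 ± 0.13), CapFb1c (0.08 ± 0.13) and CapFb3 (0.19 ± 0.22) did not pass. In CapFb1c the level was 205 and 157.9 CPM at P0 and 197 and 189.7 CPM at 4 weeks.

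The share of CapFb4 cells with an Il33 UMI was 51.8% at P0 (of 245 cells, Wilson 95% interval 45.6 to 58%) and 94% at 4 weeks (218 of 232 cells, 90.1 to 96.4%). The median CapFb4 cell held 18233 UMIs at P0 and 18150 at 4 weeks. Thinned to 2000 UMIs per cell the shares were 16.3 and 50.9%. Pericytes, a mural type with little Il33, had 3.32 and 4.38% (0.775 and 1.82% thinned), with 7173 and 5029 UMIs in the median cell. The share in CapFb4 lay far above that background at both depths.

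**Figure D2:**
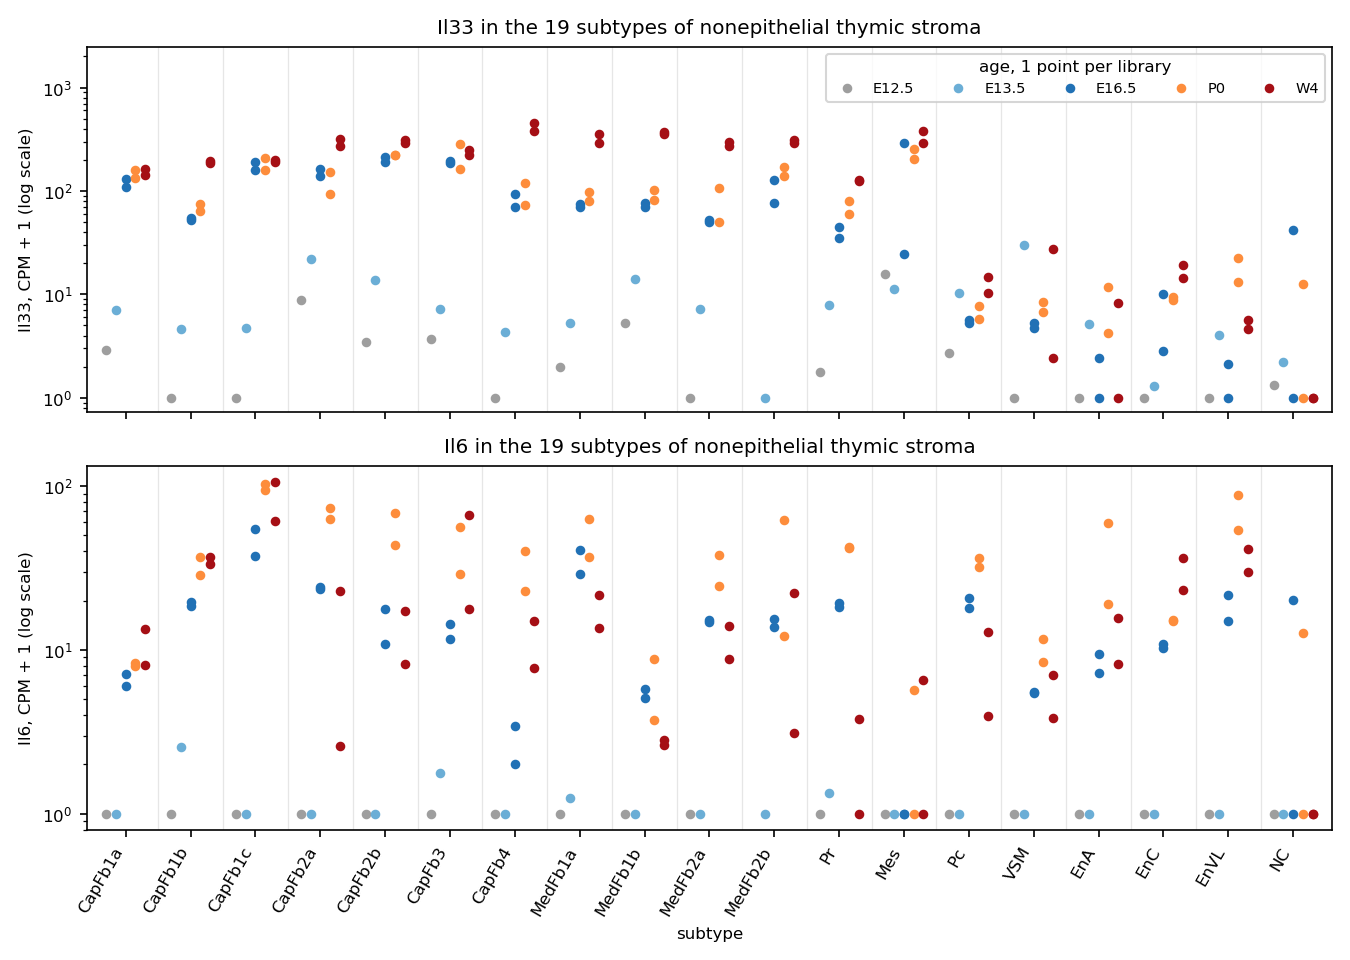
Level of Il33 and Il6 in the 19 subtypes, as CPM + 1 on a log axis, with 1 point per single-cell library marked by age. Il33 is at 123 CPM or above in 13 subtypes at 4 weeks, and Il6 is highest in CapFb1c.

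Il1rl1, the receptor of IL-33, was close to absent from NETS single cells. The age series held 32 UMIs of it in 28 of 36208 cells (0.0773%), of which 7 were in EnC cells at E13.5, and filters left it untested in every subtype. At 4 weeks its only 2 UMIs were in CapFb4, and 189 Mes cells of both libraries held none. In the newborn series 22 of its 41 UMIs lay in MmTEC, the mature medullary epithelium, the 3 mutant libraries holding 0, 6 and 3 and the 3 WT libraries 0, 4 and 9.

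Among sorted populations Il1rl1 was measured in medullary epithelium. It was 13.7 to 30.4 CPM (median 17) in mTEC at P0, 0 to 35.4 CPM (median 14.3) in mTEC at 4 weeks and 12.8 to 29.1 CPM (median 18.3) in mTEChi. All 6 libraries of mTEClo held 0, so mTEChi was at least 381-fold higher (1480 against 0 counts, set against 3 counts over the group, adjusted p = 4.4e-05). In cTEC it was at most 0.387 CPM at P0 (4 counts, against 1287 in mTEC, log2 difference -8.03 ± 1.96, adjusted p = 0.0041, and -8.91 with the replicate block) and 0 at 4 weeks, where mTEC was at least 443-fold higher (adjusted p = 1.7e-05). Summed markers of regulatory T cells and type 2 innate lymphoid cells were 154 to 228 CPM in mTEChi and 165.2 to 373 CPM in mTEClo, ranges that overlap, and their part in the Il1rl1 result was not tested. The methods describe a depletion of CD45+ cells, the class such cells belong to, from adult digests. These sums are what the libraries held after it.

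In gp38+CD26+ cells Il1rl1 was 0 to 4.97 CPM at P0 and 1.92 to 18.5 CPM (median 10.4, n = 5) at 4 weeks, and the age change did not pass (3.74 ± 1.66, adjusted p = 0.18). All gp38+CD26- libraries held 0, and at 4 weeks gp38+CD26+ cells were at least 270.1-fold higher (714 against 0 counts, adjusted p = 1.0e-04). At P0 the same difference did not pass (adjusted p = 0.070). The single cells of 4 weeks held far less Il1rl1 than these sorted cells. CapFb4, the only subtype with a UMI at that age, held 0.612 and 0.402 CPM (1 UMI in each library). Mes held 0 UMIs, while the gp38+CD26+ libraries of 4 weeks pooled held 10.6 CPM. Which cells of the sort carried Il1rl1 was not tested. Summed mesothelial markers were 438 to 5181 CPM in gp38+CD26+ cells at 4 weeks, 0 to 325 CPM at P0, and at most 47.5 CPM in gp38+CD26- cells at 4 weeks. By library at 4 weeks, Il1rl1 was 15.8, 1.92, 18.5, 10.4 and 6.58 CPM where mesothelial markers were 438, 3817, 5181, 1860.1 and 4914 CPM. At P0 Il1rl1 was 4.97, 0, 0, 0, 0 and 0 CPM where mesothelial markers were 1.84, 76.6, 0, 143.3, 30.3 and 325 CPM. The part of mesothelial RNA in the result was not tested.

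Il1r1, the signalling receptor of IL-1, was present in each sorted population, and its age change differed between them. It was 201 to 383 CPM (median 229) in gp38+CD26+ cells at P0 and 29.6 to 119.96 CPM (median 58.6) at 4 weeks, with no overlap (log2 difference -1.68 ± 0.33, edgeR adjusted p = 0.0047). In cTEC it fell from 63.7 to 170.4 CPM (median 98.7) to 22.8 to 51.4 CPM (median 32.8), again with no overlap (-1.58 ± 0.26, adjusted p = 7.3e-04). gp38+CD26- cells (249 to 378, then 207 to 309 CPM) and Ly51+gp38- cells (167.5 to 291, then 180.3 to 277 CPM) overlapped between ages and did not pass (-0.09 ± 0.13 and 0.23 ± 0.15), nor did CD31+ (0.23 ± 0.31) or mTEC (-0.45 ± 0.49). Within DFCK libraries the fall in gp38+CD26+ cells did not pass (adjusted p = 0.29), with 108.02 to 119.96 CPM at 4 weeks against 29.6 to 58.6 CPM in the libraries with the prefix TXCK. At 4 weeks gp38+CD26+ cells lay below gp38+CD26- cells by -1.79 ± 0.50 (adjusted p = 0.023), a call lost without gp38+CD26+ replicate 4, 5 or 6 (0.063, 0.065 and 0.078). CD31+ cells lay below the other 3 nonepithelial populations at P0 (51.4 to 174 CPM, -1.53 ± 0.24, adjusted p = 5.4e-06), and mTEChi lay above mTEClo (36.5 to 60.5 against 0.636 to 53.7 CPM, 1.31 ± 0.47, adjusted p = 0.046), a call lost with no filter on low counts (0.066) or with replicate 2 of gp38+CD26+ cells kept (0.054).

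In single cells Il1r1 over all cells was 2.04 CPM at E12.5, 6.80 CPM at E13.5, 94.2 and 96.9 CPM at E16.5, 87.2 and 114 CPM at P0 and 166 and 144.01 CPM at 4 weeks. At 4 weeks it was highest in MedFb2a (295 and 299 CPM), Pc (278 and 236), MedFb1b (266 and 243) and MedFb1a (237 and 218), and lowest in CapFb4 (mean 19.3) and NC (21.5 and 0, from 14 cells). Medullary fibroblasts and pericytes thus held more than capsular fibroblasts, where the highest subtype was CapFb1b (132.4 and 125.1 CPM) or CapFb3 (108.1 and 142.7). From P0 to 4 weeks it rose in 8 of 17 subtypes and fell in CapFb4, where 13.7% of all tests were higher and 13.9% lower. MedFb1b (139.9 and 147 to 266 and 243 CPM) rose by 0.79 ± 0.08 (adjusted p = 1.5e-06), Pc (118 and 121 to 278 and 236 CPM) by 0.92 ± 0.10 (adjusted p = 2.7e-05), MedFb1a by 0.71 ± 0.12, MedFb2a by 0.54 ± 0.08 and VSM by 0.73 ± 0.11, and these 5 calls were kept in every alternative. CapFb3 (1.23 ± 0.21) was lost without 4 weeks replicate 2 (adjusted p = 0.053), EnC (1.01 ± 0.24) without any 1 of the 4 libraries of P0 and 4 weeks (0.065 to 0.10), EnVL (1.02 ± 0.30) without P0 replicate 2 (0.21) or 4 weeks replicate 1 (0.28) or 2 (0.083), and the fall in CapFb4 (-0.64 ± 0.22, adjusted p = 0.032) without P0 replicate 2 (0.37) or 4 weeks replicate 1 (0.20). By DESeq2 CapFb4 (0.36) and EnVL (0.26) did not pass, and with the replicate number as a block EnVL did not (0.063). Between E16.5 and P0 0 of 17 subtypes passed, with 2 of them at an unadjusted p under 0.05 and 0 by DESeq2, where 6.63% of all tests were higher and 5.99% lower.

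**Figure D3:**
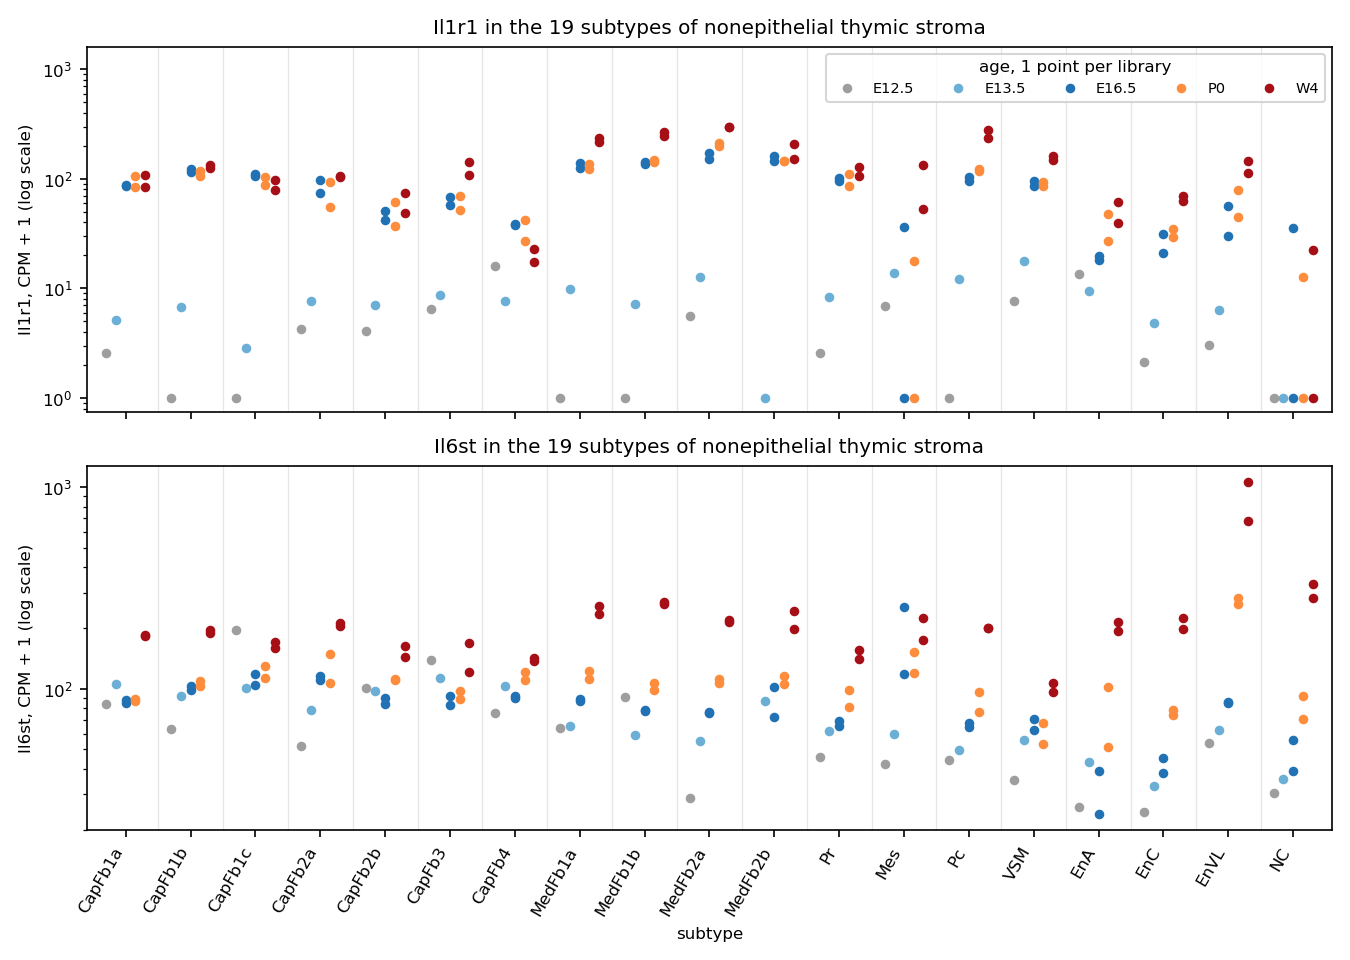
Level of Il1r1 and Il6st in the 19 subtypes, as CPM + 1 on a log axis, with 1 point per single-cell library marked by age. Il1r1 at 4 weeks is highest in medullary fibroblasts and Pc, and Il6st at 4 weeks reaches 679 and 1054 CPM in EnVL.

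Il6 fell in both gp38+ populations after birth. It was 4.52 to 64.2 CPM (median 25.5) in gp38+CD26+ cells at P0 and 0 to 2.38 CPM (median 0) at 4 weeks, with no overlap (log2 difference -5.65 ± 1.33, edgeR adjusted p = 0.014). In gp38+CD26- cells it was 5.03 to 23.1 CPM (median 12.7) and then 0.348 to 6.98 CPM (median 1.40), with an overlap (-2.49 ± 0.70, adjusted p = 0.018). Single libraries moved these values, to -8.63 without gp38+CD26+ replicate 4 of 4 weeks and to -3.32 without gp38+CD26- replicate 6 of 4 weeks, and the former was -6.42 with the prefix as a term. CD31+ cells (0.0821 to 39.8, then 0 to 15.2 CPM, -1.50 ± 1.13) and Ly51+gp38- cells (1.75 to 17.5, then 0 to 7.93 CPM, -1.26 ± 1.0) did not pass (adjusted p = 0.57 and 0.51). The 2 prefixes differed in level: in gp38+CD26+ cells at P0 the TXCK libraries held 29.4, 33.9 and 64.2 CPM and the DFCK libraries 4.52, 17.5 and 21.6 CPM. Within DFCK the fall in gp38+CD26+ cells did not pass (adjusted p = 0.19), and that in gp38+CD26- cells passed within neither TXCK (0.13) nor DFCK (0.14) nor in 1 fit over all populations (0.35).

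In epithelium Il6 was near 0. All cTEC libraries held 0 at P0, and mTEC held 39 counts in 2 libraries, at least 11.8-fold more (adjusted p = 0.0055). All mTEClo libraries held 0, and mTEChi held counts in 3 libraries, mostly in 1 at 10.4 CPM, at least 38.1-fold more (adjusted p = 0.020). Each of these calls rests on 2 or 3 libraries, and without replicate 6 the bounds were 4.8-fold for mTEC and 6.70-fold for mTEChi.

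In single cells Il6 over all cells was 0 at E12.5, 0.195 CPM at E13.5, 15.6 and 16.6 CPM at E16.5, 36.1 and 33.7 CPM at P0 and 14.1 and 23.2 CPM at 4 weeks. CapFb1c led at P0 with 94 and 102.7 CPM, followed by EnVL (53.3 and 86.9) and CapFb2a (62.4 and 72.8), which overlapped, and CapFb1c led again at 4 weeks with 60.6 and 104 CPM. Il6 was the member with the most calls between E16.5 and P0, with 9 of 17 subtypes higher, and all 21 calls of the 7 genes (85 tests) were higher, where 6.63% of all tests were called higher and 5.99% lower. CapFb4 went from 1.0 and 2.41 CPM to 39.3 and 21.9 CPM (4.14 ± 0.41, adjusted p = 7.9e-08), CapFb1c from 36.7 and 53.6 to 94 and 102.7 CPM (1.13 ± 0.19, adjusted p = 9.6e-04) and EnVL from 14 and 20.6 to 53.3 and 86.9 CPM (1.94 ± 0.29, adjusted p = 0.0018). These 3 Il6 calls were kept in every alternative (CapFb4 at 4.90 without E16.5 replicate 2), and the other 6 were lost in at least 1. Without E16.5 replicate 1 CapFb2a, CapFb2b, MedFb2a, Pc and Pr did not pass (adjusted p 0.056 to 0.36), without E16.5 replicate 2 CapFb2a, MedFb2a, Pc and Pr did not (0.084 to 0.36), and CapFb1b was lost by DESeq2 (0.062).

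From P0 to 4 weeks Il6 fell in 9 of 17 subtypes and rose in EnC, where 13.9% of all tests were called lower. Pr went from 40.8 and 41.7 CPM to 2.81 and 0 CPM (-5.17 ± 0.57, adjusted p = 0.0011), with 29 Pr cells in each library of 4 weeks. At the depth of those libraries 2.81 CPM is 1 UMI, and a count of 0 bounds the level only below 6.95 CPM. The size of the fall in Pr is therefore poorly measured. Pc went from 35.5 and 31 to 2.96 and 11.9 CPM (-2.43 ± 0.33, adjusted p = 1.7e-04), and CapFb2b from 42.5 and 67.9 to 7.18 and 16.2 CPM (-2.02 ± 0.33, adjusted p = 7.3e-04). Those falls, MedFb1a (-1.58 ± 0.33) and MedFb2a (-1.46 ± 0.25) were kept in every alternative, but single libraries of 4 weeks moved their size. Pr was -4.06 without replicate 2. Without replicate 1 the remaining Pr library of 4 weeks was at 0, so the fitted -11.74 is no measured fold. Pc was -1.64 without replicate 1 and -3.66 without replicate 2, and CapFb2b was -2.82 without replicate 2. The fall in CapFb2a (-2.17 ± 0.43) was lost by DESeq2 (adjusted p = 0.24) and was -1.57 without 4 weeks replicate 1 and -5.34 without replicate 2. The call was lost in CapFb4 (-1.40 ± 0.31) without P0 replicate 1 (0.092), in EnVL (-1.03 ± 0.30) without P0 replicate 2 (0.26), 4 weeks replicate 1 (0.11) or 2 (0.20), and in MedFb1b (-1.52 ± 0.54) without P0 replicate 1 (0.33), 4 weeks replicate 1 (0.12) or 2 (0.11). The rise in EnC (0.96 ± 0.29, adjusted p = 0.047) was lost without P0 replicate 1 (0.15) or 2 (0.14) or 4 weeks replicate 1 (0.27). By DESeq2 CapFb4, EnVL, MedFb1b and EnC did not pass either (0.11 to 0.43). CapFb4 was -2.11 without 4 weeks replicate 2 and MedFb1b -2.17 without P0 replicate 2. CapFb1c (-0.24 ± 0.20), CapFb1b (0.09 ± 0.15), CapFb1a (0.60 ± 0.44) and CapFb3 (0.26 ± 0.50) did not pass.

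Many genes of the response to dissociation, above all immediate early genes, changed in the direction of Il6, and their part in its change was not tested. Of 16 such genes over 17 subtypes, 176 of 272 tests were lower at 4 weeks than at P0 and 44 higher, and 50% were higher at P0 than at E16.5 and 8.46% lower. Lower at 4 weeks were thus 64.7% against 13.9% of all tests, and higher 16.2% against 13.7%, while from E16.5 to P0 6.63% of all tests were higher and 5.99% lower. Nr4a1, an early gene of many stimuli, was lower in 16 subtypes at 4 weeks and higher in 16 at P0. The heat shock genes Hspa1a and Hspa1b of the same list went the other way, higher at 4 weeks in 17 of 17 subtypes each and lower at P0 than at E16.5 in 10 and 8. In Pc 14 of the 16 genes were lower (median log2 difference -2.24, against 0.00 over all genes tested). In CapFb1a and CapFb1b 12 and 13 of the 16 were lower where Il6 did not pass, and in CapFb4, where Il6 fell, 4 were lower and 6 higher. In bulk gp38+CD26+ cells 9 of the 16 were lower at 4 weeks and 0 higher (median -2.24, against -0.06). In these changes from P0 to 4 weeks, age and the bead depletion of adult digests cannot be told apart.

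**Figure D4:**
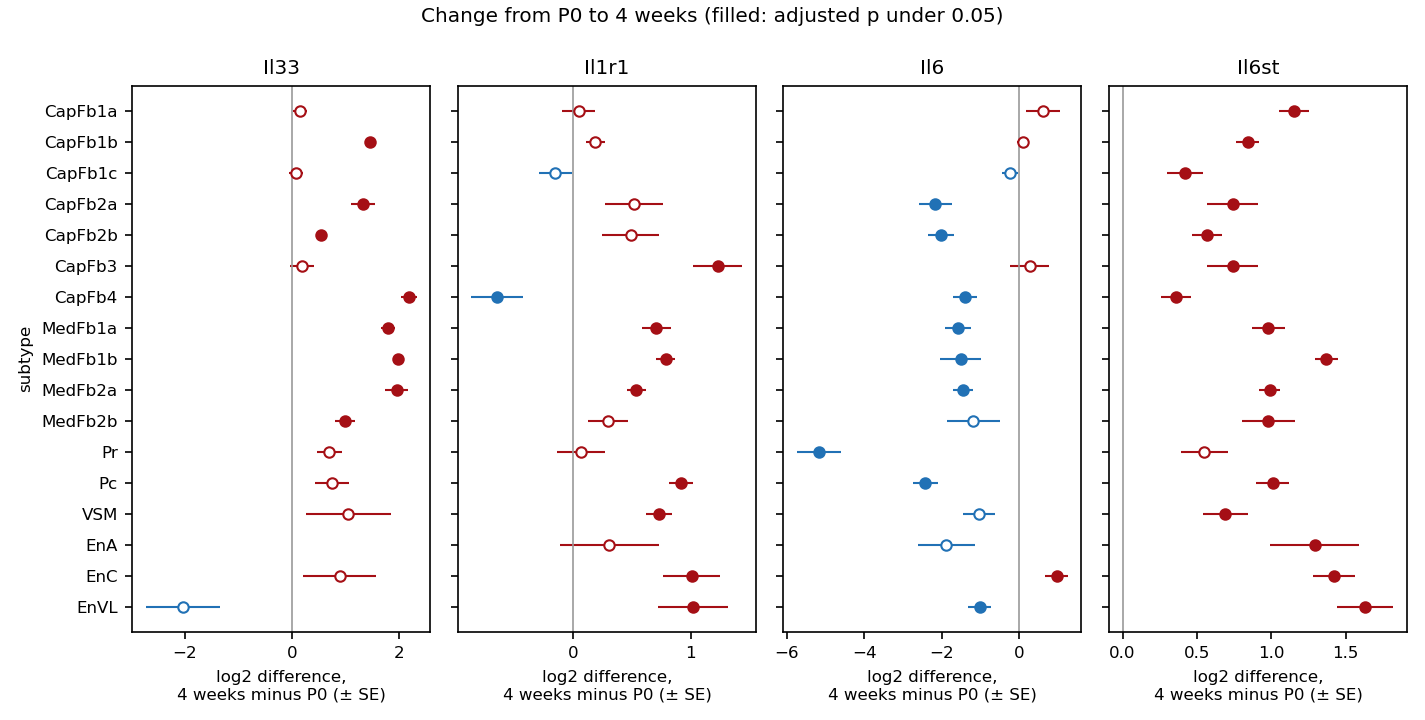
Log2 difference of 4 weeks minus P0 with its standard error for Il33, Il1r1, Il6 and Il6st in 17 subtypes (Il33 in 16), each panel on its own scale, with filled points for an adjusted p under 0.05. Il33 rises in 8 subtypes, Il6st in 16, and Il6 falls in 9.

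Lif and Il11, the other gp130 ligands of the list, were at low levels. Lif was highest in gp38+CD26+ cells at 4 weeks (1.14 to 25.9 CPM, median 12.6) and gp38+CD26- cells at 4 weeks (3.76 to 20.5, median 6.28), against 0 to 6.72 and 0 to 7.52 CPM at P0. The ages overlapped and neither rise passed (2.52 ± 1.22, adjusted p = 0.22, and 1.67 ± 1.11, adjusted p = 0.31). CD31+ cells held 0 counts of Lif at both ages. At 4 weeks gp38+CD26+ cells held at least 287-fold and gp38+CD26- cells at least 204-fold more than CD31+ cells, and CD31+ passed against the other 3 nonepithelial populations (adjusted p = 0.0029). At P0 Ly51+gp38- cells held 0, and gp38+CD26- cells held at least 70.4-fold and gp38+CD26+ cells at least 52.8-fold more (adjusted p = 0.0084 against both). Lif was above 0 in 4 of 6 libraries of each, and without gp38+CD26+ replicate 1 that bound was 30.4-fold.

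In single cells Lif reached 9.71 and 8.03 CPM in MedFb1a at 4 weeks (10 and 9 UMIs). Between P0 and 4 weeks it passed in MedFb1a (2.26 ± 0.74, adjusted p = 0.027), a call lost without P0 replicate 2 (0.12), 4 weeks replicate 1 (0.10) or 2 (0.070) and by DESeq2 (0.14). Between E16.5 and P0 it passed in MedFb1b (1.77 ± 0.47, adjusted p = 0.018) and MedFb2a (3.2 ± 0.78, adjusted p = 0.012). Both were lost without E16.5 replicate 1 (0.17 and 0.055) or 2 (0.053 and 0.11), and MedFb2a was 2.53 and 3.87 without P0 replicate 1 and 2. Il11 was at most 9.72 CPM in any bulk library, and its highest group mean was 2.05 CPM. Il11 passed in MedFb1b and MedFb2a between E16.5 and P0 (3.53 ± 1.07, adjusted p = 0.034, and 1.90 ± 0.46, adjusted p = 0.011). The first was lost without E16.5 replicate 1 (0.095) or 2 (0.23) or P0 replicate 1 (0.12), and the second without E16.5 replicate 1 (0.13) or P0 replicate 2 (0.093), its value being 2.59 without E16.5 replicate 2. Il11 passed in 0 of 9 subtypes between P0 and 4 weeks (3 at an unadjusted p under 0.05, 0 by DESeq2), where 13.7% of all tests were higher and 13.9% lower. At P0 CD31+ cells held 0 counts of Il11 against 138 in gp38+CD26+ cells, which were at least 48.5-fold higher (adjusted p = 0.014 against the other 3 populations). Those counts lay in 3 of 6 libraries, 79.7% of them in replicate 4, without which the bound was 11.8-fold.

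Il6st, the shared receptor chain, rose in endothelium. In CD31+ cells it was 311 to 562 CPM (median 401) at P0 and 1830.3 to 2490.1 CPM (median 2107) at 4 weeks, a 5.50-fold rise with no overlap (2.46 ± 0.17, edgeR adjusted p = 2.1e-06). In Ly51+gp38- cells it rose 2.30-fold from 245 to 372 CPM to 542 to 849.6 CPM, also with no overlap (1.20 ± 0.13, adjusted p = 4.0e-05). Smaller changes passed in gp38+CD26- cells (369.8 to 641, then 571 to 769 CPM, 0.47 ± 0.13, adjusted p = 0.016) and, downward, in cTEC (229.8 to 399.9, then 160.1 to 316 CPM, -0.55 ± 0.17, adjusted p = 0.030). Both overlapped between ages and were lost in single settings: gp38+CD26- within TXCK (0.16) and DFCK (0.092) and in 1 fit over all populations (0.075), and cTEC within DFCK (0.49), in that fit (0.13) and without cTEC replicate 2, 3, 4 or 6 of 4 weeks (0.059 to 0.065) or 2, 3 or 4 of P0 (0.055 to 0.058). gp38+CD26+ cells (0.15 ± 0.13, adjusted p = 0.50) and mTEC (0.15 ± 0.35, adjusted p = 0.90) did not pass.

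Between populations Il6st at 4 weeks was higher in CD31+ cells than in the other 3 nonepithelial populations (1.64 ± 0.19, adjusted p = 5.0e-09), where at P0 the difference was -0.15 ± 0.13 (adjusted p = 0.46). At P0 Ly51+gp38- cells lay below both gp38+ populations (-0.69 ± 0.14, adjusted p = 6.6e-04). In epithelium cTEC exceeded mTEC at P0 (229.8 to 399.9 against 54.2 to 103.4 CPM, 2.12 ± 0.17, adjusted p = 1.6e-11) and at 4 weeks (1.31 ± 0.25, adjusted p = 1.4e-04). mTEChi (16 to 28.8 CPM) lay below mTEClo (73.6 to 248 CPM) by 6.64-fold with no overlap (-2.73 ± 0.27, adjusted p = 6.6e-10).

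In single cells Il6st measured 60.7 and 68.8 CPM over all cells at E12.5 and E13.5, 75.2 and 78.1 CPM at E16.5, 98.6 and 105 CPM at P0 and 226 and 193 CPM at 4 weeks. From P0 to 4 weeks it rose in 16 of 17 subtypes, all but Pr (0.55 ± 0.16, adjusted p = 0.063), where 13.7% of all tests were called higher. EnVL went from 263 and 279 to 1054 and 679 CPM (1.63 ± 0.19, adjusted p = 2.1e-04), EnC from 73 and 77.5 to 224 and 197 CPM (1.42 ± 0.14, adjusted p = 2.4e-04) and MedFb1b from 105 and 97.8 to 263 and 269 CPM (1.37 ± 0.08, adjusted p = 4.7e-09). CapFb4 rose least, by 0.36 ± 0.10 (adjusted p = 0.010). The calls in CapFb1c, CapFb2a, CapFb3, CapFb4, EnA and VSM were lost in at least 1 alternative and the other 10 were kept in every one. CapFb1c was lost without 4 weeks replicate 1 (0.053), CapFb2a without 4 weeks replicate 2 (0.095), CapFb3 without 4 weeks replicate 1 (0.095), CapFb4 without P0 replicate 2 (0.075) or 4 weeks replicate 2 (0.066), EnA (1.29 ± 0.30, and 1.92 without P0 replicate 2) without P0 replicate 1 (0.12) or 4 weeks replicate 1 (0.077), and VSM without 4 weeks replicate 1 (0.057) or 2 (0.094). By DESeq2 CapFb1c, CapFb3, CapFb4, EnA and VSM did not pass (0.070 to 0.25). EnVL had already risen between E16.5 (83.7 and 85.2 CPM) and P0, by 1.65 ± 0.20 (adjusted p = 4.5e-04), a call kept in every alternative. Il33 in EnVL rose in the same interval, from 0 and 1.13 CPM (0 and 3 UMIs) to 21.3 and 12.1 CPM (24 and 11 UMIs, 4.50 ± 0.78, adjusted p = 0.0039, also kept). The value was 3.76 without E16.5 replicate 1. Without E16.5 replicate 2 the remaining E16.5 library held 0 UMIs, so the fitted 7.24 is no measured fold. At 4 weeks Il33 in EnVL was 4.68 and 3.62 CPM (-2.03 ± 0.69, adjusted p = 0.076). EnVL libraries also held 10.2 to 1261 CPM of 4 fibroblast markers, whose part in its Il33 was not tested.

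Counted over the 7 genes, the age test called 3 of 6 tested in gp38+CD26+ cells (13.2% of all genes tested were called in that population), 3 of 6 in gp38+CD26- cells (24.3%), 3 of 3 in cTEC (22.3%), 1 of 3 in CD31+ cells (5.09%) and 1 of 4 in Ly51+gp38- cells (11.9%). In mTEC it called 0 of 6 (5.99% of all genes), with 0 at an unadjusted p under 0.05 by edgeR and 0 called by DESeq2. Between populations at P0 it called 3 of 7 for Ly51+gp38- (16.3% of all genes), 3 of 7 for CD31+ (33.3%), 3 of 7 for cTEC against mTEC (29.4%) and 0 of 7 for gp38+CD26+ against gp38+CD26- (3.68%, with 1 at an unadjusted p under 0.05 and 0 by DESeq2). At 4 weeks these were 1 of 7 (20.8%), 3 of 7 (25.1%), 3 of 7 (30.8%) and 2 of 7 (6.26%), and 4 of 7 for mTEChi against mTEClo (17.3%). Of all calls between mTEChi and mTEClo 77.9% were higher in mTEChi by edgeR and 66.3% by DESeq2. The age change differed between the 6 populations (edgeR interaction test) for 5 of 7 genes, where 21.1% of 19415 genes passed: Il6st (adjusted p = 5.8e-11), Il1r1 (9.8e-04), Il33 (0.021), Il6 (0.023) and Il11 (0.049), the last lost with no filter (0.070) or with the prefix as a term (0.060). Lif (0.19) and Il1rl1 (0.31) did not pass.

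Per kilobase of exon, which allows levels of different genes to be compared, Il33 was the highest of the 7 in gp38+CD26+ (554 CPM per kb, mean of 5 libraries) and gp38+CD26- cells (471) at 4 weeks. Il1r1 was 11.5 and 41.8 CPM per kb there. Il6 was 11.7 CPM per kb in gp38+CD26+ cells at P0, its highest group.

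Of the 6 receptor chains besides gp130 on the list, 37 of 92 tests in single cells (40.2%) were higher at 4 weeks than at P0 and 10 (10.9%) lower, where 13.7% of all tests were higher and 13.9% lower. Il6ra, the IL-6 binding chain, was higher in 11 of 14 subtypes, with 3.14 ± 0.41 in MedFb1b (edgeR adjusted p = 2.1e-05). Lifr, the LIF receptor, was higher in 8 of 17 and lower in 0, with 2.49 ± 0.25 in EnVL (adjusted p = 6.4e-05). Il11ra1, the IL-11 receptor, was higher in 11 of 17 with 2 lower. Osmr was higher in 3 and lower in 5 of 17, Cntfr higher in 2 and lower in 3 of 15, and Il27ra higher in 2 of 12. In bulk Lifr rose in CD31+ cells (2.04 ± 0.29, adjusted p = 8.0e-04) and fell in gp38+CD26+ (-2.98 ± 0.58, adjusted p = 0.0047) and gp38+CD26- cells (-0.99 ± 0.20, adjusted p = 0.0021). These bulk falls had no counterpart among the single-cell subtypes. Other ligands of the family (7 genes) had 0 higher and 5 lower of 34 tests (14.7%), a share near the 13.9% of all tests.

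Of 9 parts of the JAK-STAT pathway, 25 of 153 tests were higher (16.3%) and 40 lower (26.1%) at 4 weeks, against 13.7 and 13.9% of all tests. Socs3, the feedback inhibitor induced by STAT3, was lower in 15 of 17 subtypes, for example by -2.63 ± 0.13 in Pc (adjusted p = 5.3e-08), and higher in CapFb4 (1.01 ± 0.15, adjusted p = 1.0e-05). Socs3 also fell in all 6 bulk populations, from -1.33 ± 0.29 in CD31+ cells (adjusted p = 0.016) to -3.52 ± 0.47 in gp38+CD26+ cells (adjusted p = 3.4e-04). Stat3 was lower in 9 subtypes. Of 11 NF-kB responsive genes, 50.3% of tests were lower and 13% higher, and the chemokine Cxcl1 was lower in 16 of 17 subtypes. Nfkb2 (9 higher, 1 lower), Tnfaip3 (4 higher, 1 lower) and Relb (2 higher, 0 lower) of that list went the other way. Between E16.5 and P0 the NF-kB list had 47% of tests higher and 2.70% lower, and the JAK-STAT list 14.4% higher and 1.31% lower, where 6.63% of all tests were higher and 5.99% lower. The genes of the response to dissociation changed the same way in these comparisons (64.7% of tests lower at 4 weeks, 50% higher at P0 than at E16.5), and their part in these changes was not tested.

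Of 12 partners of IL-1 and IL-33, 18.5% of tests were higher and 12.6% lower at 4 weeks, shares near those of all tests (13.7 and 13.9%). Il1rap, the accessory chain of both receptors, was higher in 6 of 13 subtypes, with 1.73 ± 0.40 in CapFb4 (adjusted p = 0.0018). Myd88, the adapter of both receptors, was lower in 13 of 17 and in bulk in gp38+CD26+ cells (-0.61 ± 0.18, adjusted p = 0.043) and gp38+CD26- cells (-0.61 ± 0.18, adjusted p = 0.026). Irak1 was higher in 7 of 17 subtypes.

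Genotype was compared in the newborn libraries over 18 subtypes with at least 20 cells in every library. Tbx1, a check of the labels, was 0, 0 and 0.872 CPM in the 3 mutant libraries (0, 0 and 8 UMIs) against 1.79, 0.441 and 0.605 CPM in those of WT (13, 6 and 19 UMIs). The groups overlapped, and mutant replicate 3 lay above 2 of the 3 WT libraries. Crkl was 23.6 to 26.9 CPM in the former and 18.4 to 25.1 CPM in the latter, so it was not lower in the mutants. Whether the null allele still gives RNA that these counts include is not given in the sources used here, so Crkl does not check the labels. Over all cells Il33 was 29.9, 40.3 and 29.4 CPM in mutants and 41.9, 38.6 and 52.1 CPM in WT. Il6 was 35.4, 38.8 and 44.3 CPM in mutants and 65.4, 49.1 and 41.5 CPM in WT. The groups overlapped for both genes. Levels over all cells also depend on the make-up of the libraries, which include epithelium. Its perinatal cortical subtype, for example, had 2756 cells in mutants and 2070 in WT. The median cell held 2391 to 2551 UMIs in mutants and 2577 to 4686 in WT.

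Of 53 member tests between genotypes 0 were called by edgeR (0.0481% of all tests were called), 0 by DESeq2, and 5 had an unadjusted p under 0.05. The smallest p was that of Il33 in Pr cells, with 7.33, 16.8 and 13.8 CPM in mutants and 44.4, 47.8 and 35.3 CPM in WT (-1.54 ± 0.43, unadjusted p = 8.0e-04, adjusted p = 0.22). That difference rests on 16 against 98 UMIs, and the groups did not overlap. The other 4 tests under 0.05 were all of Il6, which had 9 tests, and they differed in direction. Il6 was lower in mutants in CapFb2b (-1.20 ± 0.41), MedFb2a (-0.67 ± 0.28) and Pc (-0.51 ± 0.24). It was higher in the perinatal cortical epithelium (1.42 ± 0.50). Their edgeR adjusted p was 0.56 to 0.89. At this age Il6 was highest in CapFb1c (281, 223 and 329 CPM in mutants, 282, 167.8 and 176 CPM in WT) and Il6st in EnVL (276 ± 43.9 and 379 ± 144.1 CPM, SD, n = 3).

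The genes whose pattern over the 14 bulk group means of log2(CPM + 1) was most like that of each member, among 13334 genes, are given as a description over means that share libraries and depth. For Il33 they were Dcn (r = 0.970), Loxl1 (0.963) and Aldh1a1 (0.942), for Il1rl1 Slc6a13 (0.983), Prg4 (0.983) and Amhr2 (0.959), and for Il6 Sele (0.961), Igf2 (0.926) and Kat14 (0.895). For Il6st they were Irgm2 (0.960), Wwtr1 (0.949) and Klf7 (0.924), for Il1r1 Acp2 (0.932), Dhx33 (0.915) and Spry4 (0.906), and for Lif Aox3 (0.942), Ngef (0.917) and Insrr (0.912). Il11 was under the minimum of 10 CPM.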

How the data were processed

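For the single cells the authors deposited UMI counts of each gene in each cell, as whole numbers, and a subtype name per cell, and for the sorted populations whole read counts per Ensembl gene, both without normalization. The submitters' processing notes name Cell Ranger 3.1.0, STAR 2.5.3a, HTSeq and the builds mm10 and GRCh38. Strandedness is not given in the sources used here. Entries of no gene (7.81 to 16.6% of counts in the libraries used) were left out, and 37607 of 39179 Ensembl IDs matched a symbol. Here UMIs were summed per subtype and library. Levels needed at least 5 cells and tests at least 20 cells in every library compared. Tests used edgeR 4.0.16 in R 4.3.3 (filterByExpr, TMM, quasi-likelihood test), with p adjusted by Benjamini and Hochberg over all genes within a contrast and a threshold of 0.05, and ran on simulated data first. Bulk libraries under 1000000 counts were left out. Alternatives were DESeq2 1.42.0, no filter, at least 50 cells, the low library kept, TXCK or DFCK alone or as a term, 1 fit over all bulk libraries, the replicate block and leaving out each library. Where that left 1 library in an arm, it was assumed to vary like the other groups. A fold against a group at 0 is set against 3 counts over the group. Wilson (95%) intervals cover counting error only, and bulk reads carry no molecular identifiers. Levels, shares and figures were made in Python 3.11.15 with pandas 2.3.3, scipy 1.17.1 and matplotlib 3.10.9. All 7 members are named. Partner genes come from lists and are named with values where they passed the test described. Members and lists were chosen with earlier results of these data known. Most like patterns are the 3 genes with the highest Pearson correlation over group means, among genes of at least 10 CPM in a group.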

Additional observations from a re-analysis of the deposited data

Results flagged for a closer look

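In 22 of 84 pairs of a gene and a bulk group 1 library stood apart from the other 4 or 5 by Dixon's criterion. Another 14 pairs were equal in every library and were not examined. The criterion flags about 1 in 20 groups of normally distributed values by chance. Counts near 0 are not so distributed, so that rate does not apply to them. Most of the flagged libraries were the highest in a group otherwise near 0. For Il1rl1 they were cTEC P0 replicate 4 (0.387 CPM), mTEC P0 replicate 5 (30.4) and gp38+CD26+ P0 replicate 1 (4.97). For Il6 they were cTEC 4 weeks replicate 6 (2.23 CPM), mTEC 4 weeks replicate 4 (3.26), gp38+CD26+ 4 weeks replicate 4 (2.38), mTEChi replicate 6 (10.4) and gp38+CD26- 4 weeks replicate 6 (6.98). For Lif they were cTEC 4 weeks replicate 2 (1.56 CPM), mTEC 4 weeks replicate 2 (12.6), gp38+CD26- 4 weeks replicate 3 (20.5) and cTEC P0 replicate 5 (1.37). For Il11 they were cTEC 4 weeks replicate 5 (2.29 CPM), gp38+CD26+ 4 weeks replicate 3 (0.427), Ly51+gp38- 4 weeks replicate 3 (0.539), mTEClo replicate 2 (0.521), CD31+ 4 weeks replicate 1 (7.67), cTEC P0 replicate 1 (1.55), gp38+CD26+ P0 replicate 4 (9.72) and Ly51+gp38- P0 replicate 6 (3.18). Among the genes at higher levels, Il1r1 was highest in gp38+CD26+ P0 replicate 5 (383 CPM) and Il6st lowest in Ly51+gp38- P0 replicate 4 (245 CPM).

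The age change differed between the sorted populations by the edgeR interaction test for Il6st (adjusted p = 5.8e-11), Il1r1 (9.8e-04), Il33 (0.021), Il6 (0.023) and Il11 (0.049). Il6st rose in 3 populations and fell in cTEC. Il33 rose in 3 populations, among them cTEC, and Il1r1 and Il6 each fell in 2.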

How the results depend on the processing

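Of the calls on the 7 genes 61 were kept in every alternative and 42 were lost in at least 1, and no call changed sign. Member calls in the sorted populations between ages were 11, 5 within DFCK libraries alone (fewer libraries) and 10 to 12 when 1 library was left out. Between populations they were 22 and 21 to 22. Between P0 and 4 weeks in the subtypes they were 44 and 34 to 43, and between E16.5 and P0 21, 10 by DESeq2 (the cause was not tested) and 8 to 30, with 8 without E16.5 replicate 1 and 10 without E16.5 replicate 2. Between genotypes they were 0 throughout. By DESeq2 the share of all calls that were higher went from 43.1 to 57.3% in Pr between P0 and 4 weeks, and between E16.5 and P0 from 56.6 to 73.6% in CapFb1c and from 58.2 to 70.6% in CapFb4. The labels do not say what a shared replicate number marks, although sample numbers in the bulk titles recur at a fixed step between populations. Same-numbered libraries deviated together, with a correlation over 0.1, in 57.8% of pairs of bulk P0 (mean correlation 0.126), 34.8% of bulk 4 weeks (0.08), 0 of 6 of the age series and 1 of 3 of the newborn series. With 2 libraries per age, deviations from the age mean mirror each other. In the age series, pairs of replicate 1 therefore repeat those of replicate 2 and are not separate observations. Of the bulk libraries 25 of 36 at P0 and 29 of 47 at 4 weeks correlated best with their own number, a hint from the data and not from the design. With the replicate block the calls were 22 between populations, 46 from P0 to 4 weeks, 22 from E16.5 to P0 and 0 between genotypes. Lif, Il11 and Il1rl1 rest on few UMIs per library, and with 2 libraries per age single libraries decide many calls.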

Other observations

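UMIs of Il6 were spread over few cells of the age series. Of 8604 UMIs in 3483 cells, 55.6% of those cells held a single UMI, while the cells with 10 or more held 22.2% of all UMIs and 1 cell held 45. Il33 had 37750 UMIs in 11098 cells, 3.40 per cell with a UMI, and 678 cells with 10 or more held 24.4%. For Il1r1 and Il6st cells with 10 or more UMIs held 3.92 and 3.77%.

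In the medullary epithelium the other IL-6 family ligands differed between fractions. 4 of the 5 tested were higher in mTEChi than in mTEClo (17.3% of all genes were called, 77.9% of these higher in mTEChi by edgeR and 66.3% by DESeq2), Osm (log2 difference 8.67 ± 1.99, edgeR adjusted p = 0.0064), Clcf1 (6.47 ± 2.15, adjusted p = 0.033), Il27 (6.38 ± 1.34, adjusted p = 0.0018) and Ebi3 (3.76 ± 0.97, adjusted p = 0.0088). From P0 to 4 weeks Ebi3 (3.01 ± 0.32, adjusted p = 8.4e-05) and Il27 (2.17 ± 0.36, adjusted p = 0.0023), the chains of IL-27, rose in mTEC. The LIF receptor chain Lifr was lower in mTEChi (-4.57 ± 0.45, adjusted p = 8.6e-10), as Il6st was. Il1r2, a receptor that binds IL-1 without signalling, fell with age in cTEC (-1.79 ± 0.31, adjusted p = 9.6e-04) and mTEC (-1.26 ± 0.18, adjusted p = 9.4e-04) and rose in gp38+CD26+ cells (3.03 ± 0.67, adjusted p = 0.010).

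At 4 weeks endothelium held 26.7 and 6.97% of the Il6 UMIs of the 2 libraries, against 3.99 and 5.36% at P0. Its Il6 level was 33.5 and 21.9 CPM, against 29.6 and 40.7 CPM at P0, while that of pericytes and smooth muscle was 2.90 and 8.58 CPM, against 21 and 19.6 CPM.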
